A study of Mus musculus with 4 samples.

Results

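Tnfaip1 encodes a BTB-domain adaptor of the cullin 3 ubiquitin ligase. It was described here with 8 genes that work beside it: its relatives Kctd10 and Kctd13, the adaptors Kctd5 and Klhl12, the ligase subunits Cul3 and Rbx1, and the small GTPases Rhoa and Rhob. The 9 genes were taken by symbol from a table of 25050 genes, and all 9 reached the minimum of 10 normalised reads on average that 15540 genes passed. The set was selected on the fold change of Tnfaip1 between these same groups, so its values are a description and carry no test.

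RNA was sequenced from HT-22, an immortalised mouse line labelled as hippocampal neurons, at passage 21 to 24. The groups were cells with the genotype Nsmce1 overexpression (2 libraries, titled Nsmce1-pb) and wild type cells (2 libraries). The series' design text describes the overexpressing cells as carrying an inducible Nsmce1 and the controls as uninduced, while the sample labels call the controls wild type. The inducing agent, its dose and time, the promoter and the number of clones are not given in the labels. Separate cultures are not stated either, and p-values then measure the spread between libraries, which may be technical. Nsmce1 itself had 17851 and 16525 normalised reads in the overexpressing libraries and 1108 and 1206 in the wild type libraries, a 14.8-fold difference in the labelled direction.

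In a cullin 3 ligase the cullin is the scaffold, Rbx1 is the RING subunit that brings in the ubiquitin-conjugating enzyme, and a BTB protein holds the substrate. Tnfaip1, Kctd10 and Kctd13 form the BACURD family. In human cells BACURD proteins were shown to direct RhoA to degradation, which loosens actin stress fibres, and Tnfaip1 was first found as a gene induced by tumour necrosis factor in endothelium. RhoA and RhoB are GTPases that steer the actin cytoskeleton and vesicle traffic.

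The promoters of the BACURD genes are shown because Tnfaip1 was the 1 gene of the family called and because its promoter is shared with a gene transcribed the other way. Each runs from 250 bases before to 50 after the RefSeq start site, on the gene's strand, in the build GRCm38.p6, which is not the build mm9 named in the submitters' processing notes. The windows are chr11:78536211-78536510 on the minus strand for Tnfaip1, chr5:114380456-114380755 on the minus strand for Kctd10, and chr7:126928629-126928928 on the plus strand for Kctd13. Capitals mark matches on either strand to the GC box (GGGCGG), an ETS site (CCGGAAGT) and the core of a cyclic AMP response element (TGACGT).
Tnfaip1: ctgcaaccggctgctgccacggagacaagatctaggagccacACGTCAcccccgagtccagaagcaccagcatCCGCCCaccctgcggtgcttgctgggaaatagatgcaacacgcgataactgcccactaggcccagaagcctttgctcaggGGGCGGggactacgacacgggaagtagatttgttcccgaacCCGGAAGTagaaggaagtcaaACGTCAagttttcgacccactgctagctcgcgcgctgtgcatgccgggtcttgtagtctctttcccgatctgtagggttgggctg
Kctd10: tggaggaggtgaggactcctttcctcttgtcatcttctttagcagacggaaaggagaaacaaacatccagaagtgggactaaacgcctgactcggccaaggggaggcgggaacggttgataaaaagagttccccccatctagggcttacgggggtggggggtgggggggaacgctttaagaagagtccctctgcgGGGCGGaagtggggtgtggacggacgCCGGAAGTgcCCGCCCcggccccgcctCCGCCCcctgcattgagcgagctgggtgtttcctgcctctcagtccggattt
Kctd13: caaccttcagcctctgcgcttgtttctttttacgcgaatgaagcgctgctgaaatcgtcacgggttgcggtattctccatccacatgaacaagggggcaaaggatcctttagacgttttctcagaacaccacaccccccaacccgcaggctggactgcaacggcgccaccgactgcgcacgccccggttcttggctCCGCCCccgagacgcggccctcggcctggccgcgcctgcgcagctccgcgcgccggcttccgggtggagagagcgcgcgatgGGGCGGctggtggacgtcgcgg

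The Tnfaip1 window held 2 GC boxes, 1 ETS site and 2 response element cores. The Kctd10 window held 3 GC boxes and 1 ETS site, and the Kctd13 window 2 GC boxes. Of 32851 mouse promoter windows of the same length, 35.7% held a GC box, 3.89% the ETS letters and 7.51% the response element core. A loose kappa B pattern (GGG, 5 bases of any kind, then CC), after the site bound by NF-kB and not shown in capitals, stood in 50.8% of windows, in those of Kctd10 and Kctd13 among them, and was not matched in the Tnfaip1 window. The E box (CACGTG, in 7.15% of windows) and the CCAAT box (CCAAT, in 37.4%) were matched in none of the 3 windows. The motifs were picked with these sequences in view, matches do not overlap each other in the Tnfaip1 window but kappa B matches overlap others in the Kctd10 and Kctd13 windows, and a match is a string of letters, not a measured site.

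Tnfaip1 (ENSMUSG00000017615, chromosome 11) had 3997 and 4212 normalised reads in the overexpressing libraries and 1540 and 1767 in the wild type libraries. Both overexpressing libraries lay far above both wild type ones. The 4 ratios of an overexpressing to a wild type library ran between 2.26 and 2.73, against ratios of 1.05 within overexpression and 1.15 within wild type. The means were 4104 ± 152 normalised reads with overexpression and 1654 ± 160 in wild type (SD, n = 2 each), a 2.49-fold difference (log2 fold change 1.31, SE 0.0975). Behind these values stood 3997 and 5770 reads in the overexpressing libraries and 1225 and 1678 in the wild type libraries, so that counting alone gives an error of 1.32% to 2.86% per library. In RNA from bulk cells, fewer cells of a type and less RNA per cell cannot be told apart.

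Tnfaip1 was the 1 member past an adjusted p of 0.05 over all genes tested (limma), a threshold that 0.193% of tested genes passed in either direction, 0.103% upwards and 0.0901% downwards. That contrast chose the gene, so nothing is read from its count. The call was lost without wild type replicate 1 (log2 fold change 1.22), without wild type replicate 2 (1.41) and under limma without a variance trend (1.31), with the direction kept each time. Its rise ranked 138 among all genes tested, and 286 of them (1.84%) had a larger change in either direction. Among the 6650 genes with a mean of at least 1000 normalised reads, 5 had a larger rise, where the mean includes the raised libraries. These ranks rest on the change that chose Tnfaip1 and are a description only. In the reference annotation no other gene lies over Tnfaip1, on either strand.

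**Figure D1:**
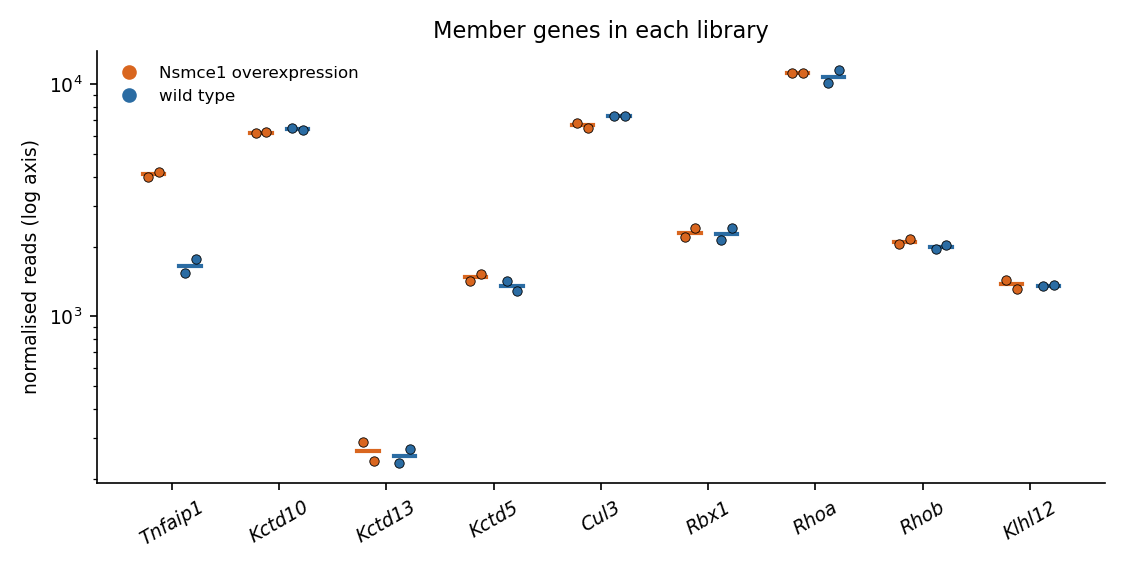
Normalised reads (log axis) of the 9 genes in each library, with overexpression in orange left of wild type in blue; points are libraries and bars are group means. Tnfaip1 stands at 3997 and 4212 with overexpression and at 1540 and 1767 in wild type, while the groups of the other 8 genes lie close together.

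Neither relative of Tnfaip1 was called. Kctd10, the BACURD member reported to act on RhoB in human cells, had 6153 and 6240 normalised reads with overexpression and 6467 and 6384 in wild type. Its groups did not overlap, with the overexpressing libraries lower, but they parted by a log2 fold change of only -0.05 (95% limits -0.22 to 0.12, limma adjusted p = 0.886 over all genes). Reads of Kctd10 could be shared with Myo1h, which lies on the opposite strand over 1530 bases of its exons, since whether counting used strand is not known. Kctd13, the BACURD gene studied in brain development, had the fewest reads of the 9, with 289 and 237 normalised reads in the overexpressing libraries and 233 and 270 in the wild type ones. The groups interleaved (log2 fold change 0.06, limits -0.35 to 0.48, adjusted p = 0.953), and the limits run from 0.783 to 1.40 times the wild type level. Its counting error was 5.55% to 7.35% per library. It overlaps Gm21984 on its own strand and Asphd1 on the other, both with under 10 normalised reads in every library.

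The makeup of the BACURD transcripts differed as Tnfaip1 did. Levels of different genes were compared as normalised reads per kilobase of annotated exons. Tnfaip1 made up 39.2% and 40.4% of the summed BACURD level in the overexpressing libraries and 19.4% and 21.7% in the wild type libraries. Kctd10 held 56.3 ± 0.283% with overexpression and 74.7 ± 2.03% in wild type, and Kctd13 held 3.89 ± 0.598% and 4.74 ± 0.408% in the same groups (SD, n = 2 each). The sum of the 3 was 2697 and 2754 reads per kilobase with overexpression and 2102 and 2156 in wild type. The shares depend on the lengths used: over the longest transcript with a coding region, Tnfaip1 took 33.6% on average with overexpression, and 15.5% and 17.5% in the wild type libraries. These shares rest on the same values that chose Tnfaip1 and carry no test.

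**Figure D2:**
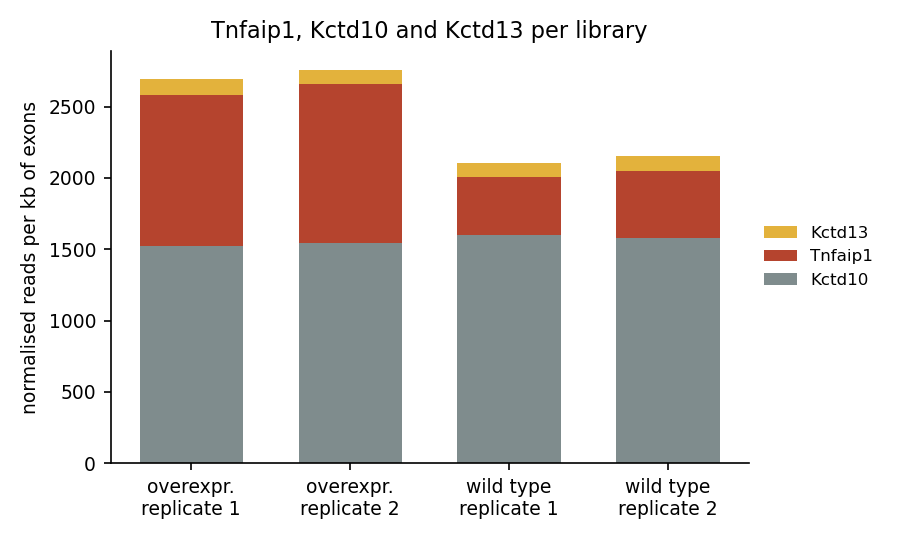
Normalised reads per kilobase of annotated exons of the 3 BACURD genes, stacked for each library, overexpression left of wild type. The Tnfaip1 segment is 1057 and 1114 in the overexpressing libraries and 407 and 467 in wild type, and the Kctd10 segment lies between 1523 and 1601 in all 4 libraries.

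Neither of the other adaptors was called. Kctd5, which in human cells brings the beta and gamma subunits of G proteins to the ligase, had 1427 and 1526 normalised reads with overexpression and 1429 and 1283 in wild type, so that the groups overlapped (log2 fold change 0.12, limits -0.12 to 0.37, limma adjusted p = 0.790). Klhl12, a Kelch-type adaptor that in human cells acts on the COPII coat protein Sec31A and on Dishevelled, had 1431 and 1320 with overexpression and 1352 and 1365 in wild type. The wild type values lay between the overexpressing ones (log2 fold change 0.02, limits -0.21 to 0.24, adjusted p = 0.982).

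Neither subunit of the ligase core was called. Cul3 had 6818 and 6490 normalised reads in the overexpressing libraries and 7319 and 7287 in the wild type libraries. Its overexpressing values were both lower, with a log2 fold change of -0.13 (limits -0.31 to 0.04), and it missed the threshold (limma unadjusted p = 0.109, adjusted p = 0.710). Rbx1 had 2198 and 2395 with overexpression and 2138 and 2417 in wild type, and the overexpressing values fell inside the wild type range (log2 fold change 0.01, limits -0.23 to 0.26, adjusted p = 0.987). Per kilobase, Tnfaip1 stood at 0.756 and 0.836 times the Cul3 level with overexpression and at 0.271 and 0.313 times in wild type, and Kctd10 at 1.09 and 1.16 times with overexpression and 1.07 and 1.06 times in wild type.

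The GTPase substrates were measured at the RNA level only, which does not speak to protein turnover. Rhoa had 11167 and 11227 normalised reads with overexpression and 10127 and 11492 in wild type. The wild type libraries differed from each other by more than the groups did (log2 fold change 0.05, limits -0.15 to 0.26, limma adjusted p = 0.907). Rhob, an inducible relative found on endosomes, had 2049 and 2153 with overexpression and 1960 and 2038 in wild type. Its groups were apart by a narrow margin, the overexpressing ones higher (log2 fold change 0.07, limits -0.13 to 0.28, adjusted p = 0.858). Exons of Rhoa overlap Tcta on the opposite strand by 32 bases and the antisense gene Gm37401 by 324, so that its reads can be shared. The processed pseudogene Gm37568 lies over Rhoa on the same strand, with 0 shared exon bases and at most 10.1 normalised reads in any library. Copies of Rbx1 and of the other members elsewhere in the genome were not searched for, and could share reads.

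In all, 6 of these 8 genes had a log2 fold change above 0 and 2 below 0, with a median of 0.04 and a median size of 0.06, where all genes tested had a median of 0.01 and a median size of 0.12. The sizes were not matched for level. The median SE was 0.133 over all genes tested, while the 8 had SEs from 0.0696 (Kctd10) to 0.171 (Kctd13). The groups did not overlap for 4 of the 9 members, 2 higher and 2 lower, and for 39.1% of all genes tested, 20.8% higher and 18.3% lower. None of the 8 had an unadjusted limma p under 0.05, which 7.92% of tested genes had. An exact permutation test of 2 libraries against 2 cannot go below a two-sided p of 0.333, so p-values here rest on the variance that limma pools over genes.

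**Figure D3:**
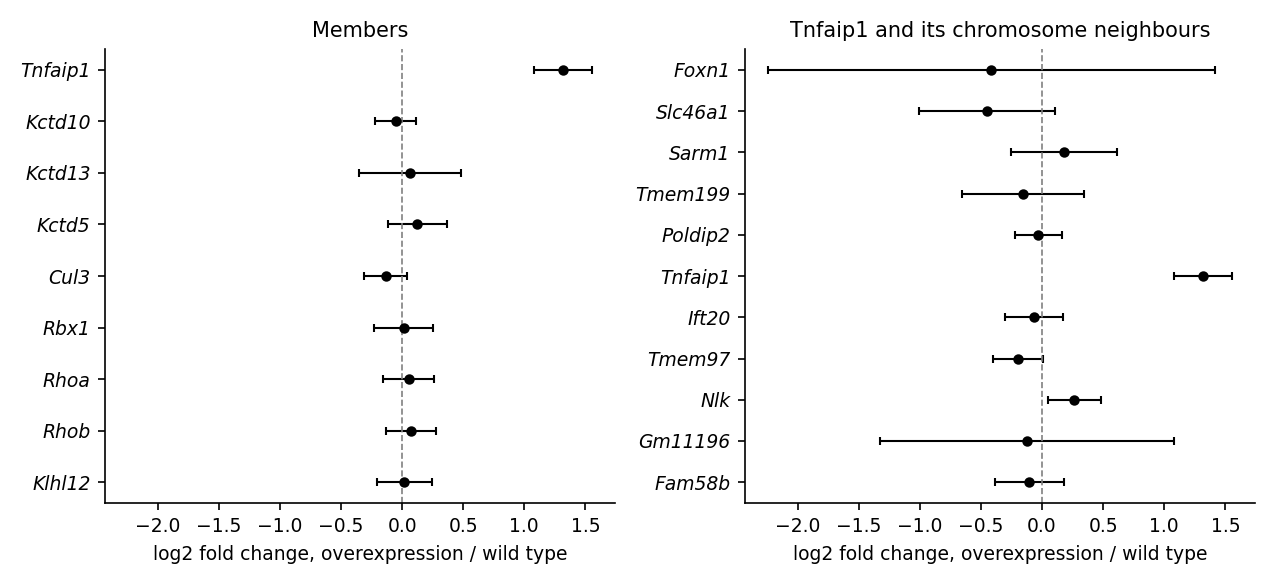
Log2 fold changes, overexpression over wild type, with 95% limits from limma, for the 9 members (left) and for Tnfaip1 with the 5 tested genes on each side of it on chromosome 11 (right). Tnfaip1 stands at 1.31 and the other 8 members lie between -0.13 and 0.12; its chromosome neighbours lie between -0.45 and 0.26.

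The members spanned more than a decade of expression. With overexpression Kctd10 led at 1534 ± 15.2 normalised reads per kilobase, followed by Rhoa at 1494 ± 5.66, Cul3 at 1366 ± 47.6, Tnfaip1 at 1086 ± 40.2 and Rhob at 895 ± 31.4. Below them came Rbx1 at 505 ± 30.6, Kctd5 at 396 ± 18.8, Klhl12 at 121 ± 6.90 and Kctd13 at 106 ± 14.7. The libraries of Klhl12 and Kctd13 overlapped there, and those of the other neighbours in the order did not. In wild type Kctd10 stood at 1591 ± 14.6, Cul3 at 1499 ± 4.63, Rhoa at 1442 ± 129 and Rhob at 851 ± 23.3, with Cul3 and Rhoa overlapping. Then came Rbx1 at 500 ± 43.4, Tnfaip1 at 437 ± 42.4, Kctd5 at 363 ± 27.6, Klhl12 at 119 ± 0.811 and Kctd13 at 101 ± 10.5. Rbx1 and Tnfaip1 parted by little more than their spread (lowest Rbx1 library 470, highest Tnfaip1 library 467).

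Tnfaip1 therefore ranked 4 of 9 with overexpression, above Rhob and Rbx1, and 6 of 9 in wild type, below both. Its level exceeded that of 90.0% of tested genes with overexpression and 72.7% in wild type, while Cul3 exceeded 92.3% with overexpression and 93.0% in wild type. The order depends on the lengths: over the longest transcript with a coding region, Rhoa led in both groups, and Tnfaip1 ranked 5 of 9 with overexpression and 7 of 9 in wild type.

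None of the genes beside Tnfaip1 was called. Ift20, which encodes a component of the transport machinery of cilia, is transcribed the other way from a start site 101 bases from that of Tnfaip1, and their promoter windows share 200 bases, those that hold the ETS site, 1 of the GC boxes and 1 of the response element cores shown in capitals. Such a divergent start within 250 bases was found for 7.72% of 16291 promoters on the minus strand. Ift20 had 817 and 814 normalised reads with overexpression and 841 and 870 in wild type, slightly lower in both overexpressing libraries (log2 fold change -0.07, limits -0.31 to 0.17, limma adjusted p = 0.894). Poldip2, the neighbour on the other side, encodes a protein that binds DNA polymerase delta, as Tnfaip1 and Kctd13 do in human. It had 2586 and 2635 normalised reads with overexpression and 2609 and 2725 in wild type (log2 fold change -0.03, adjusted p = 0.952).

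Of the 10 tested genes nearest to Tnfaip1, 2 lay above 0 and 8 below, with a median log2 fold change of -0.11, and 0 were called by limma. A single one had an unadjusted p under 0.05. This was Nlk, a kinase of Wnt signalling, at 1414 and 1385 normalised reads with overexpression and 1144 and 1189 in wild type (log2 fold change 0.26, adjusted p = 0.548). Tmem97, a sterol-related membrane protein, stood at -0.20 (limma adjusted p = 0.635), with both overexpressing libraries below both wild type ones. Tmem199, Sarm1, Slc46a1, Foxn1, Fam58b and the pseudogene Gm11196 stood at -0.16, 0.18, -0.45, -0.41, -0.10 and -0.13. Among these, only Sarm1 and Slc46a1 had groups that did not overlap. The 1220 tested genes of chromosome 11 had a median of -0.03. Chromosomes 10 and 16, whose genes had medians of 0.14 and 0.17, hold 0 of the 9 members, and the members' chromosomes had medians from -0.03 to 0.03.

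The 3 genes whose values followed Tnfaip1 most closely over the 4 libraries were Slc36a1, Plxnb1 and Cemip, by the Euclidean distance between log2 values centred on each gene's mean, among 10515 genes with at least 100 normalised reads. Slc36a1, an amino acid transporter also on chromosome 11, had a distance of 0.207 and was itself called (limma adjusted p = 0.0147). It had 1280 and 1481 normalised reads with overexpression and 518 and 512 in wild type. Plxnb1, a semaphorin receptor that signals to RhoA, had a distance of 0.213, with 395 and 377 reads against 168 and 167 in wild type (limma adjusted p = 0.0583). Cemip, which takes part in hyaluronan breakdown, had a distance of 0.261, with 234 and 208 reads against 94.3 and 108 in wild type (adjusted p = 0.143). The distance rests on 4 libraries, and Tnfaip1 was chosen for the same rise, so it is a description.

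Beyond the members, 9 related gene lists were examined, and 0 of their tested genes were called by limma in either direction. At an unadjusted limma p under 0.05 there were 17 of 179 tested genes (9.50%), 14 higher and 3 lower, against 7.92% of all genes tested. The 14 include Stard8, which passed the filter only through the overexpressing libraries. The split by direction was not counted over all genes, so nothing is read from it. The higher genes include Klhl22, Klhl24 and Cep97 on chromosome 16 and Btbd2, Cand1 and Ppp1r12a on chromosome 10, and the others lie elsewhere. All tested genes of these chromosomes had medians of 0.17 and 0.14. Among 13 tested genes of the KCTD family, 9 lay above 0 (median log2 fold change 0.10). Kctd20 had 2680 and 2542 normalised reads with overexpression and 3077 and 3334 in wild type (log2 fold change -0.30, limma adjusted p = 0.454), and Kctd17 stood at 0.16 (adjusted p = 0.713). Of 14 other BTB adaptors 9 lay above 0 (median 0.06), with Btbd2, on chromosome 10, at 0.28 and Btbd1 at 0.17. Without genes of chromosomes 10 and 16, 6 of 11 BTB adaptors lay above 0, with a median of 0.045. The KCTD median was 0.053 without overexpression replicate 1 and 0.056 without wild type replicate 2. It was 0.101 without overexpression replicate 2 and 0.141 without wild type replicate 1. The median of the BTB adaptors was 0.038 without overexpression replicate 2 and 0.055 without wild type replicate 2. It was 0.098 without overexpression replicate 1 and 0.122 without wild type replicate 1.

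BTB-Kelch genes, the largest group of cullin 3 adaptors, leaned upwards: 26 of 31 tested genes lay above 0, with a median of 0.14, where 51.3% of all tested genes lay above 0 with a median of 0.01. For 11 of the 31 both overexpressing libraries were above both wild type ones, and for 0 both were below, against 20.8% and 18.3% of all genes tested. Klhl22, a mitotic adaptor on chromosome 16, had 6346 and 5937 normalised reads with overexpression and 5156 and 4972 in wild type (log2 fold change 0.28, limma adjusted p = 0.424). Klhl23 had 361 and 391 with overexpression and 282 and 213 in wild type (0.62, adjusted p = 0.454), and Keap1, the adaptor that holds Nrf2, named after its value was seen, stood at -0.12. The lean rested in part on single libraries. The median was 0.034 with 20 genes above 0 without wild type replicate 2, and 0.081 with 21 without overexpression replicate 2. It was 0.097 with 22 without overexpression replicate 1, and 0.137 with 26 without wild type replicate 1. Without genes of chromosomes 10 and 16, 24 of 29 lay above 0 with a median of 0.11.

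The machinery that assembles and switches cullin ligases also held no called gene. The other cullins and their RING partner Rnf7 had 4 above and 4 below 0 (median 0.004), with Cul5 at 0.18 and Cul7 at -0.07. Of 23 genes of neddylation, the COP9 signalosome and cullin exchange, 13 lay above 0 (median 0.02). Cand1, the exchange factor on chromosome 10, had 8617 and 9949 normalised reads with overexpression and 7721 and 7703 in wild type (log2 fold change 0.26, limma adjusted p = 0.549). Ube2m, which conjugates Nedd8 to cullin 3, stood at -0.24 (adjusted p = 0.607). The median of these 23 turned to -0.046 without overexpression replicate 2 and to -0.081 without wild type replicate 1. It rose to 0.091 without overexpression replicate 1 and to 0.056 without wild type replicate 2. The median of the cullins turned to -0.044 without wild type replicate 1.

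None of the effectors and regulators of RhoA was called. RhoA effectors had 10 of 19 above 0 (median 0.003). Ppp1r12a, a subunit of myosin phosphatase, lies on chromosome 10 and stood at 0.29 (limma adjusted p = 0.375), and Rock1, a kinase that RhoA activates, at 0.15 (adjusted p = 0.678). Regulators of RhoA had 16 of 27 above 0 (median 0.04). Stard8, a GTPase-activating protein, had 26 and 32.1 normalised reads with overexpression and 0 in both wild type libraries. It missed the threshold (limma adjusted p = 0.0952). With a floor of 3 reads assumed over the wild type libraries, it was 17.2-fold higher. Stard8 passed the filter only through the overexpressing libraries, so nothing is read from its change. Arhgap5, also a GTPase-activating protein, had 5614 and 5870 normalised reads with overexpression and 4311 and 3987 in wild type (log2 fold change 0.47, adjusted p = 0.160). Without wild type replicate 2 the medians of the effectors and regulators turned to -0.032 and -0.0063, and without overexpression replicate 1 that of the effectors to -0.00079.

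Partners and substrates of the adaptors divided into 10 above and 10 below 0 (median 0.002). Cep97, a centriole protein that Kctd10 removes in human cells, had 974 and 1015 normalised reads with overexpression and 683 and 667 in wild type (log2 fold change 0.56, limma adjusted p = 0.168), on chromosome 16 with its median of 0.17. Ccne1, a cyclin turned over through Cul3 in mouse, stood at 0.30 (adjusted p = 0.562). Pcna and Pold2, the replication proteins that the BACURD adaptors bind, stood at -0.02 and -0.09, and the Klhl12 substrate Sec31a at -0.10, all named after their values were seen. The list's median turned to -0.010 without overexpression replicate 1, to -0.028 without wild type replicate 1 and to -0.024 without chromosomes 10 and 16.

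Genes of the response to tumour necrosis factor held no called gene: 10 of 24 tested genes lay above 0 and 14 below, with a median of -0.02. Nfkbia, the NF-kB inhibitor and a rapid target of the pathway, had 4001 and 4150 normalised reads with overexpression and 3132 and 3348 in wild type (log2 fold change 0.33, limma adjusted p = 0.348). Birc2, a ubiquitin ligase of the receptor complex, stood at 0.30 (adjusted p = 0.549). Ccl2 and Tnfaip3, induced by the factor in many cells and named after their values were seen, stood at -0.01 and -0.06. Other genes of the list, also named after their values were seen, lay further from 0. Tnfaip6 stood at 0.27, with groups that did not overlap (limma unadjusted p = 0.0460, adjusted p = 0.621). Cxcl1 and Ccl7, with overlapping groups, stood at 0.30 and 0.15, and Vcam1 at -0.17. Without overexpression replicate 1, 14 of the 24 lay above 0, with a median of 0.032. Without overexpression replicate 2, 8 did, with a median of -0.079.

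**Figure D4:**
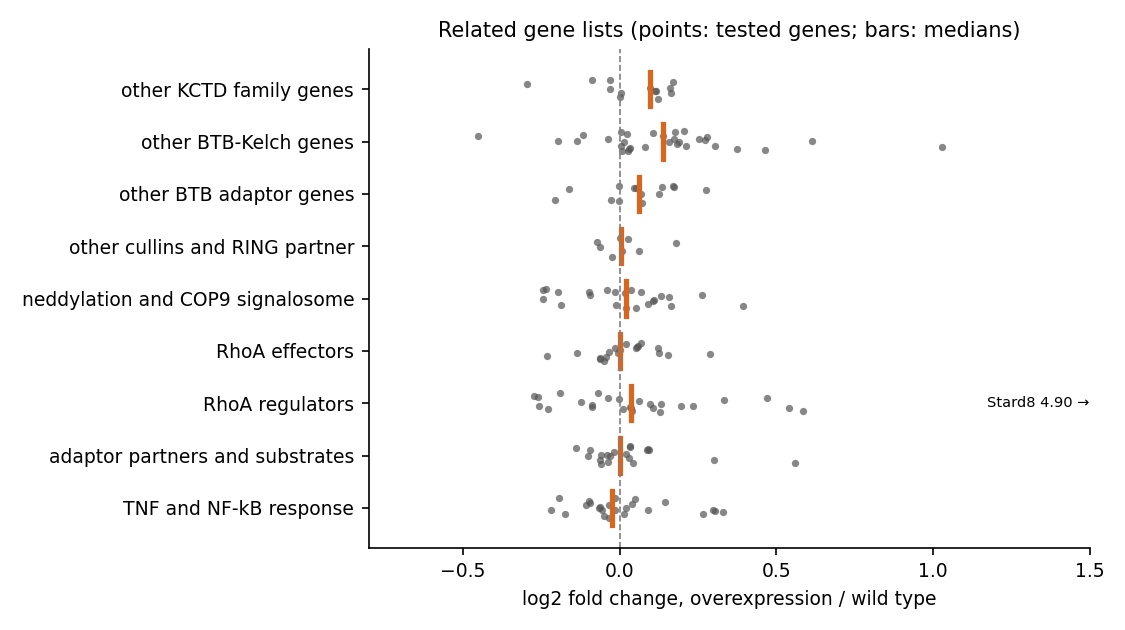
Log2 fold changes, overexpression over wild type, of the tested genes in 9 related lists (points) with list medians (bars). Medians lie between -0.02 for the tumour necrosis factor response and 0.14 for BTB-Kelch genes, and Stard8, at 4.90 with 0 reads in wild type, lies off the axis.

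No marker gene of any cell type was called by limma (lowest adjusted p = 0.118). Of 12 mature neuron markers, Rbfox3, Map2, Snap25, Nefl and Gad1 were not found among the 25050 genes of the series, and the reason was not tested. Of the other 7, Syn1 (1024 to 1219 normalised reads), Tubb3 (446 to 622) and Camk2a (30.5 to 108) reached the minimum, and the list summed to 1518 and 1886 normalised reads with overexpression and 1930 and 1699 in wild type. Syt1, Nefm, Slc17a7 and Prox1 had at most 8.80 normalised reads in any library. The fibroblast list summed to 333540 and 290850 with overexpression and 365780 and 318690 in wild type, with Col1a2 alone at 163630 to 189830, and all 7 tested genes lay below 0. Lum of this list had at most 13.7 normalised reads in any library, and Fap was not found among the genes of the series. Its genes with the smallest p were Postn (log2 fold change -0.79, limma adjusted p = 0.546) and Col3a1 (-0.37, adjusted p = 0.560). Without wild type replicate 1, 4 of the 7 lay above 0, and without overexpression replicate 2, 2 did. Astrocyte markers summed to 4560 and 4264 with overexpression and 3368 and 3022 in wild type, nearly all Slc1a3 (log2 fold change 0.49, limma adjusted p = 0.181), with Gfap at most 7.55. Aldh1l1, the other astrocyte marker tested, lay the other way, at 14.0 and 12.4 normalised reads with overexpression and 57.8 and 65.3 in wild type (-2.14, adjusted p = 0.118). Microglial and leukocyte markers summed to 1787 and 1640 with overexpression and 2338 and 1970 in wild type, mostly Tmem119 (-0.38, limma adjusted p = 0.465), with Ptprc at 0 in 3 of 4 libraries. Cd68 of the same list lay the other way, at 132 and 101 with overexpression and 88.0 and 70.6 in wild type (0.54, adjusted p = 0.659). The part of these markers in the Tnfaip1 values was not tested.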

How the data were processed

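Trizol extraction, a TruSeq kit and BGISEQ500 sequencing are stated per the labels' protocols. HISAT, Cufflinks and the build mm9 are listed, without versions, in the submitters' processing notes. The read counter and its strand setting are not stated in those notes. The authors deposited 1 value per gene and library, as log2 of normalised reads with 1 added. Once the log2 was undone, 100% of values were whole multiples of 1 step per library within 0.001 read, which gave 32516117 and 44602989 reads in the overexpressing libraries and 25787452 and 31010351 in wild type. Of 26 symbols that a spreadsheet had turned into dates, 25 were restored by identifier.

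The log2 values of 15540 genes with a mean of at least 10 normalised reads were fitted with limma 3.58.1 (R 4.3.3) with a variance trend and group as the only term, two-sided, Benjamini-Hochberg adjusted over all of them, threshold 0.05. Log2 fold changes thus carry the pseudocount of 1, which understates changes of low genes. Steps were tested on simulated data. Exons, lengths, order and chromosomes came from GENCODE M21 (GRCm38) and promoters from RefSeq (GRCm38.p6), matched by identifier or symbol. All 9 members, the 10 nearest tested neighbours, the 3 most alike genes and 2 genes per list with the smallest p are named, except for 1 list that is not reported here. Members and lists were chosen with earlier results of these data known. Alternatives were other pseudocounts, filters, scalings and variance models, voom on the recovered reads, the replicate number as a block, and each library left out. Counting errors cover counting only.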

Additional observations from a re-analysis of the deposited data

How the results depend on the processing

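Tnfaip1 kept its direction in all 14 alternative fits, with a log2 fold change of 1.22 to 1.41 when a library was left out. It missed the threshold under limma without a trend (log2 fold change 1.31, SE 0.116, adjusted p = 0.239) and without either wild type library (adjusted p = 0.135 and 0.0834), where the lone wild type library is assumed to vary like the other group; the cause was not tested. The other 8 members were called in none of these fits, with a lowest adjusted p of 0.538. When a library was left out, the log2 fold change of Kctd13 lay between -0.0778 and 0.206, of Klhl12 between -0.0415 and 0.0751, of Rbx1 between -0.0750 and 0.102 and of Rhoa between -0.0375 and 0.145, so their directions are not settled. Kctd5 lay between 0.047 and 0.202 and Rhob between 0.0358 and 0.108. In fits of all libraries, 0 genes of the related lists were called, except under limma without a trend. That fit called 1, Stard8 (limma adjusted p = 0.0228). Stard8 had 0 normalised reads in both wild type libraries and passed the filter only through the overexpressing ones. Its SE was 0.138 without the trend and 0.708 in the main fit, so nothing is read from this call.

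The 30 calls over all genes became 11 at an adjusted p under 0.01, 16 without a filter, 18 with quantile normalization, 9 without a trend, 72 with robust variances, and from 2 to 75 when a library was left out (2 and 9 without wild type replicates 1 and 2, 51 and 75 without overexpression replicates 1 and 2); the cause was not tested. With the replicate number as a block there were 60 calls. Same-numbered libraries deviated together with r = 0.00589 over genes of at least 100 normalised reads, which gave no sign of pairing over those genes. With 2 libraries per group this correlation cannot show how the libraries were prepared, so pairing is not settled. Per-length levels and the BTB-Kelch counts without a library or chromosome were added after seeing the data. At 185 to 325 reads, Kctd13 is limited most by depth.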
